A study of Drosophila melanogaster with 40 samples.

Results

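The 200 transcripts described here were the most constant ones of S2 cells, an established line of Drosophila melanogaster cells that grew out of late embryos, over a time course at 25°C. They were chosen by their own values. Of 15863 loci, 6040 reached at least 5 FPKM (fragments per kilobase of transcript, scaled to the mapped reads of the library) in all 20 libraries at 25°C, and the 200 of these with the smallest coefficient of variation (CV, the SD over the libraries divided by their mean) became the members, which is 3.31% of the eligible loci. Their values at 25°C are therefore a description and carry no test. The 20 libraries at 28°C took no part in the choice, and all 200 members were found there.

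Both time courses had 1 library every 3 h, the first at CT24 and the last at CT81 (circadian time in h), so that no time point had a replicate and the only error of a value is the scatter of its profile. At 28°C, S2 cells had been entrained by a short series of temperature cycles and were then kept at 28°C, and total RNA depleted of rRNA was sequenced. At 25°C, the temperature cycles before the experiment had lasted a week or longer, the cells received fresh medium and then stayed at 25°C, and polyA RNA was sequenced. Temperature, entrainment, medium, RNA fraction and depth thus differ together between the time courses and cannot be told apart, and no level was tested between them. The medium at 25°C also held MycoZap, an antibiotic additive, which is not named for the medium at 28°C. No gene was altered in either course. The course at 28°C served to ask whether daily rhythms keep their period at another temperature.

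Cells keep some transcripts at a steady level because their products are needed at all times, and such transcripts are called housekeeping transcripts. Some of them serve as references in quantitative PCR, where every other transcript is expressed relative to them. In a study of daily rhythms, the steadiest transcripts show how small the spread of a profile over time can be.

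Depth differed between libraries. From loci with few reads, whose values were whole multiples of a smallest step, the depth of a library relative to the median library of its own course ranged between 0.512 and 1.41 at 28°C and between 0.574 and 1.55 at 25°C. A member of a single gene held a median of 18.7 reads per library at 28°C and 2608 reads at 25°C (188 members with a known transcript length). At 28°C, the shallowest libraries were CT24, CT27, CT48 and CT60, at 0.512 to 0.640 times the median depth. The hemocyte character of S2 cells was visible in 7 of 8 marker genes with a mean of at least 0.9 FPKM at 28°C and in 5 of 8 at 25°C, where Hml, Sr-CI and NimC1 stayed at or below 0.112 FPKM in every library. Of the markers of other tissues, Mhc (muscle), vas (germ line) and Fbp1 (fat body) were below 0.9 FPKM on average in both courses, while elav (neurons) averaged 6.61 FPKM at 28°C and 6.65 FPKM at 25°C.

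At 25°C, the CV of the members ranged from 1.73% to 4.19% with a median of 3.74%, against a median of 9.95% over the 5840 other eligible loci. The highest library exceeded the lowest by a factor of 1.06 to 1.21 in the members (median 1.15), and by a median factor of 1.41 in the other loci. This factor was at most 1.2 in 196 of the 200 members. Moca-cyp, which encodes a nuclear cyclophilin (3R, 24166056 to 24170891 of the dm3 build), had the smallest CV of all. Its lowest library had 49.9 FPKM, its median library 51.2 FPKM and its highest library 53.1 FPKM, a CV of 1.73%. Tmep followed with 67.5, 70.8 and 73.1 FPKM in its lowest, median and highest library (CV 2.05%). The third was MBD-R2, a subunit of the NSL chromatin complex, with a mean of 37.2 ± 0.910 FPKM (SD over 20 libraries) and a CV of 2.45%. Tmem43, a membrane protein of the nuclear envelope, was next at 2.46%.

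**Figure D1:**
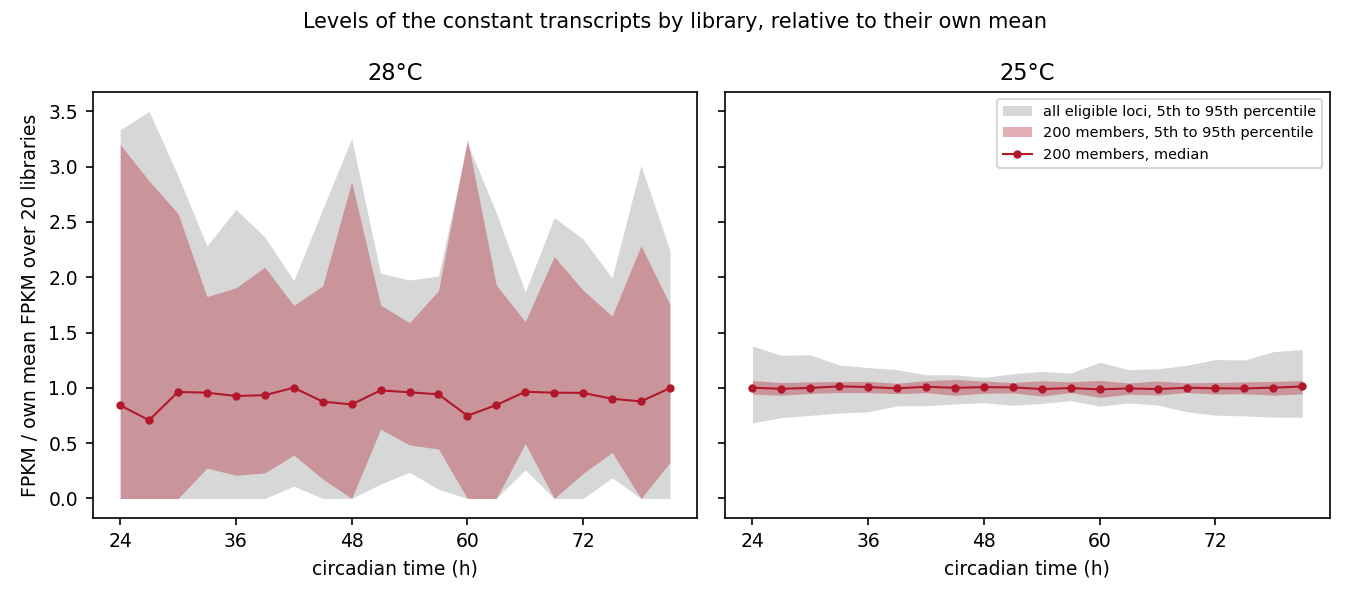
FPKM of each locus divided by its own mean over the 20 libraries, against circadian time, at 28°C (left) and 25°C (right). Red line and points show the median of the 200 members, the red band their 5th to 95th percentile and the grey band that of all eligible loci; the median of the members stayed between 0.708 and 1.00 at 28°C and between 0.986 and 1.01 at 25°C, and the band was far wider at 28°C.

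The next members by CV had very different tasks in the cell. AP-2mu, the cargo-binding subunit of the clathrin adaptor at the plasma membrane, had a CV of 2.63%. CG4853 and the splicing factor Spf45 stood at 2.64% each, and Vha44, a subunit of the proton pump of lysosomes and endosomes, at 2.69%. CG17746, beta-Man (a lysosomal beta-mannosidase), CG33523 and CG8209 lay between 2.69% and 2.70%. The locus that joins Ldaf1 and arm, the fly beta-catenin, had 2.73%, CG9775 2.75%, and Lkb1, the kinase upstream of AMPK, 2.76%. Yip1d1 of the Golgi membrane, Idh (an isocitrate dehydrogenase), Tailor (a uridylyltransferase that tails RNA), Mob4 of the STRIPAK phosphatase complex and Kat60, which severs microtubules, closed the first 20 at 2.78% to 2.82%. The mean level of these 20 spanned 16.5 FPKM for Lkb1 to 256 FPKM for Ldaf1/arm.

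The members covered a wide range of abundance. They averaged between 8.55 FPKM (CG6425) and 8439 FPKM (the locus of RpL28 and 2 snoRNAs in it), with a median of 50.9 FPKM, against 32.7 FPKM in the other eligible loci. The 5 most abundant members were RpL28, RpL23A with the snoRNA host gene Uhg7 in 1 locus (5522 FPKM), bic, the beta subunit of the nascent chain-associated complex (2829 FPKM), eEF2, the elongation factor that moves the ribosome along (2382 FPKM), and Lamp1, a lysosomal membrane protein (504 FPKM). Across the members, Spearman's rho of mean level and CV was -0.16. Across all 6040 eligible loci it was 0.07. Both are given as a description, because all loci share the same libraries.

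The boundary of the set fell in a dense part of the distribution. The last members inside were HDAC4 (a histone deacetylase), adp, defl (a subunit of the Integrator complex), RpL23A/Uhg7 and Lst8 (a subunit of the TOR complexes), all with a CV of 4.19%. The first loci outside were CYLD (a deubiquitinase), Vha55 (a subunit of the vacuolar proton pump), Sym (symplekin), RN-tre (a Rab GTPase-activating protein) and ttv (a heparan sulfate polymerase), all between 4.20% and 4.21%. Leaving out 1 time point at a time kept between 167 and 189 of the 200 members, and 147 members stayed in all 20 such sets, among them all of the first 20. Ranking by the scatter around a straight line in time kept only 66 members, and ranking by the median absolute deviation kept 117.

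Little of the remaining spread was shared among the members, which is a description only. The choice by smallest CV itself limits any spread that the members could share. Their median level relative to their own mean was lowest at CT60 (0.986) and highest at CT33 (1.01), where 132 of 200 members lay above their own mean. Dividing each library by that median lowered the median CV of the members only to 3.62%, and the median Pearson correlation of 2 members over the 20 libraries was 0.03. Counting of reads alone would give a median CV of 2.01% in the 188 members with a known transcript length and of 2.69% in the other loci. The observed CV was a median of 1.68 times that counting value in the members and 3.66 times in the other loci. Moca-cyp, with 4558 reads per library, had a counting value of 1.52% beside its observed 1.73%. CG6425, the least abundant member, had 413 reads per library and a counting value of 5.06% beside its observed 3.84%, so that its spread at 25°C lay below the estimate for counting alone.

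Slopes and rhythms at 25°C are given only as a description, since the choice of members limits both. With limma on log2(FPKM + 1) against time and a Benjamini-Hochberg adjustment over the 6933 loci that reached 0.9 FPKM in every library, 36 of 200 members passed an adjusted P of 0.05, beside a background of 71% of all loci tested. Of these, 12 were higher late (background 32.7%) and 24 lower late (background 38.3%). The fitted change over 57 h in the members ran from -0.15 log2 units in the locus of CG11334 and Loxl1 to 0.14 in eIF3d1, a subunit of initiation factor 3. With JTK-Cycle, a rank test for cosine profiles with periods of 21, 24 or 27 h, 12 members passed an adjusted P of 0.05, beside a background of 4.89%. Moca-cyp was among them, at a range of 1.06-fold between its highest and lowest library.

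By function, 63 of the 200 members fell into 14 of 20 functional lists written by hand, and 137 members were in none. The share of eligible loci that were members is read against the 3.31% over all eligible loci, and no test was made of any list. It was 25% for the vacuolar ATPase (4 of 16), 10.3% for the ubiquitin and SUMO system (8 of 78), 8.33% for vesicle traffic (15 of 180) and 7.94% for the translocation, glycosylation and folding machinery of the endoplasmic reticulum (5 of 63). It was 0 for the proteasome, cytosolic chaperones, mRNA decay, oxidative phosphorylation, mitochondrial ribosomal proteins and glycolysis.

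**Figure D2:**
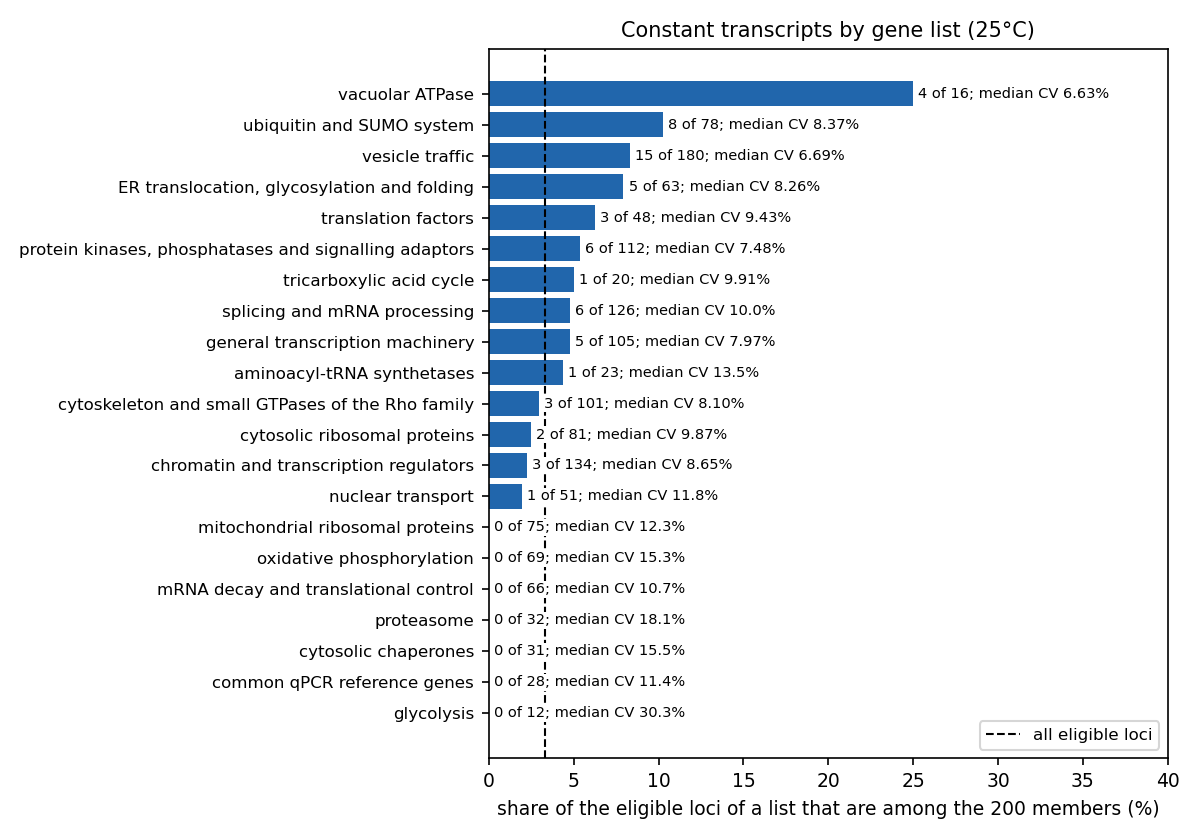
Share of the eligible loci of each gene list that were among the 200 members at 25°C, in percent, with the counts and the median CV of the eligible loci of the list beside each bar. The dashed line marks the share over all eligible loci (3.31%); the vacuolar ATPase had the highest share, and 7 lists held no member.

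The vacuolar ATPase pumps protons into lysosomes and endosomes. Vha44 (C subunit), VhaSFD (H subunit), Vha68-2 (catalytic A subunit) and Vha13 (G subunit) were members, and all belong to the cytosolic sector of the pump. Of these, Vha44 had the smallest CV (2.69%) and Vha13 the highest mean (293 FPKM). The count ranged from 2 to 5 when the set was formed in the 26 other ways tried.

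Vesicle traffic gave the most members of any list. AP-2mu, shi (dynamin, which pinches off vesicles) and, outside the list, Eps-15 (an endocytic scaffold) and aux (auxilin, which strips the clathrin coat) act in endocytosis, with CVs from 2.63% to 3.80%. The small GTPases Rab2, Rab5 and Rab10 had CVs of 3.65%, 3.85% and 3.14%, and Rab5 had the highest mean of the members in the list (168 FPKM). The SNARE proteins Vamp7, Syx7 and Ykt6 had CVs from 3.43% to 3.90%. Yip1d1, fws (a COG subunit), Golgin84 and Bet3 (in 1 locus with Nf-YA) serve the Golgi, while Vps29 (retromer), Vps4 (the ATPase of the ESCRT pathway) and g (the delta subunit of AP-3) sort cargo at endosomes. Over the 180 eligible loci of the list the median CV was 6.69%, below the 9.69% over all eligible loci. Of the 9 clathrin and adaptor genes compiled after the values had been seen, 4 were members, while Clc, the clathrin light chain, had a CV of 13.7%.

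Among the members in the ubiquitin system, Ubc2 (a conjugating enzyme) had the smallest CV, 2.94%, and SkpA, the adaptor of SCF ligases, the highest mean, 437 FPKM. Cul1 and Cul2, the scaffolds of 2 classes of ligase, had 3.34% and 3.69%. CSN3 of the COP9 signalosome, Ubc7 and Mkrn1 were also members, as was the locus that joins Fbl6 with CG18335 and dare. In contrast, none of the 32 eligible proteasome subunits was a member, and their median CV was 18.1%. EloC, an elongin that couples cullins to substrates, was a member outside the list at 3.95%.

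Among the members in the endoplasmic reticulum, EMC8-9 of the membrane protein insertion complex had the smallest CV, 2.82%, and Stt3A, the catalytic subunit of oligosaccharyltransferase, the highest mean, 180 FPKM. Alg11 and Edem2, which build and trim glycans, and EMC1 were the others. The remaining 8 subunits of the EMC complex had CVs from 4.68% to 13.6%, so that 2 of its 10 subunits were members.

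The translation factors were represented by eEF2 (3.55%, the highest mean of the members in the list), eIF3d1 (3.70%) and eIF5 (4.10%), 3 of 48 eligible loci. Of the cytosolic ribosomal proteins, only the loci of RpL28 (3.94%) and RpL23A (4.19%) were members, 2 of 81. Both loci also hold noncoding RNA genes, snoRNAs in the first and the snoRNA host gene Uhg7 in the second. TyrRS was the only member among 23 aminoacyl-tRNA synthetases (3.15%). Ranbp16, an importin-like transport receptor, was the only one among 51 genes of nuclear transport (3.38%). Idh was the only member among 20 eligible loci of the hand-written list for the tricarboxylic acid cycle (2.79%). Whether this isocitrate dehydrogenase acts in the cycle itself was not examined.

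Splicing factors, the general transcription machinery and chromatin regulators had shares of 4.76%, 4.76% (5 of 105) and 2.24%, beside 3.31% of all eligible loci. The numbers of members varied with the way the set was formed (5 to 11, 1 to 6 and 1 to 10). Hpr1 of the THO export complex had the smallest CV of the members in the splicing and processing list (3.34%) and Srp54, an SR-type splicing factor, the highest mean (78.3 FPKM), 6 of 126 in all. Of the members in the general transcription machinery Taf13, a subunit of TFIID, had both the smallest CV (3.72%) and the highest mean (139 FPKM), beside atms (Paf1), MED17, Polr3E and Taf2. Chd1, a chromatin remodeller, Bap60 of the Brahma complex and HDAC4 were the 3 of 134 chromatin regulators, with Chd1 the smallest CV (3.59%) and Bap60 the highest mean (75.4 FPKM). The NSL complex, which binds promoters of active genes, was compiled after its members had been noticed. MBD-R2, Rcd1 (3.25%) and nsl1 (3.73%) were members, while mof had a CV of 5.18%, dgt1 7.09%, wds 14.2% and Rcd5 20.3%.

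Signalling proteins included 6 of 112 kinases, phosphatases and adaptors. Of these, Lkb1 had the smallest CV, and CkIalpha, casein kinase 1 alpha, the highest mean (98.7 FPKM). Mob4 and Fgop2 belong to the same phosphatase complex. Lst8 and raptor (in 1 locus with Mipp2) are subunits of TORC1, the growth-controlling kinase complex. The Rag GTPases RagA-B (3.87%) and RagC-D (4.12%), which bring TORC1 to the lysosome, and Wdr24 (3.94%) of the GATOR2 complex upstream of them were members as well. This group was also compiled after the values had been seen, and 5 of its 9 eligible genes were members, while Wdr59, a partner of Wdr24, had a CV of 27.5%.

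Among proteins tied to the circadian clock of the fly, CkIalpha, which phosphorylates PER, had a CV of 4.12% and Bdbt, a binding partner of the PER kinase Doubletime, 3.95%. Doubletime itself (dco) lay outside the set at 5.22%. From the cytoskeleton came Ilk (integrin-linked kinase, the smallest CV of its list at 4.09%), Lis-1 and the dynactin subunit DCTN2-p50 (the highest mean of these, 119 FPKM), 3 of 101 eligible loci.

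None of the 28 genes in a list of common qPCR references was a member, beside 3.31% of all eligible loci, a small share for a list of this size. The steadiest were eIF1A (CV 5.05%, rank 510 of 6040), nrv2 (5.37%), Rap2l (5.45%), betaTub56D (6.31%), RpL4 (6.40%), RpS20 (6.71%), Polr2B (6.87%) and eEF1alpha1 (7.66%). Faf2, Ubi-p5E, RpL13A and SdhA lay between 8.36% and 9.86%. Tbp stood at 10.4% and RpL32, a reference often used in flies, at 10.6% (rank 3394), where its highest library exceeded its lowest 1.46-fold. The tubulin alphaTub84B had a CV of 12.1% and Act5C one of 12.6% (rank 4023), with RpL11, COX5A, Cyp1, 14-3-3epsilon, kra, CG13220 and Gapdh1 between 13.3% and 19.3%. The last were Hsp83 (24.2%), Zw (25.6%), Gapdh2 (29.7%), Su(Tpl) (33.4%) and Act42A (34.0%). The median CV of the 28 was 11.4%, against 9.69% over all eligible loci, and none entered the set in any of the 26 other ways of forming it. At 28°C the median CV of the 28 was 40.6%, against 57.2% in the members. The ratio of that CV to the median of loci of like level had a median of 0.935 in the 28 and 0.888 in the members.

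**Figure D3:**
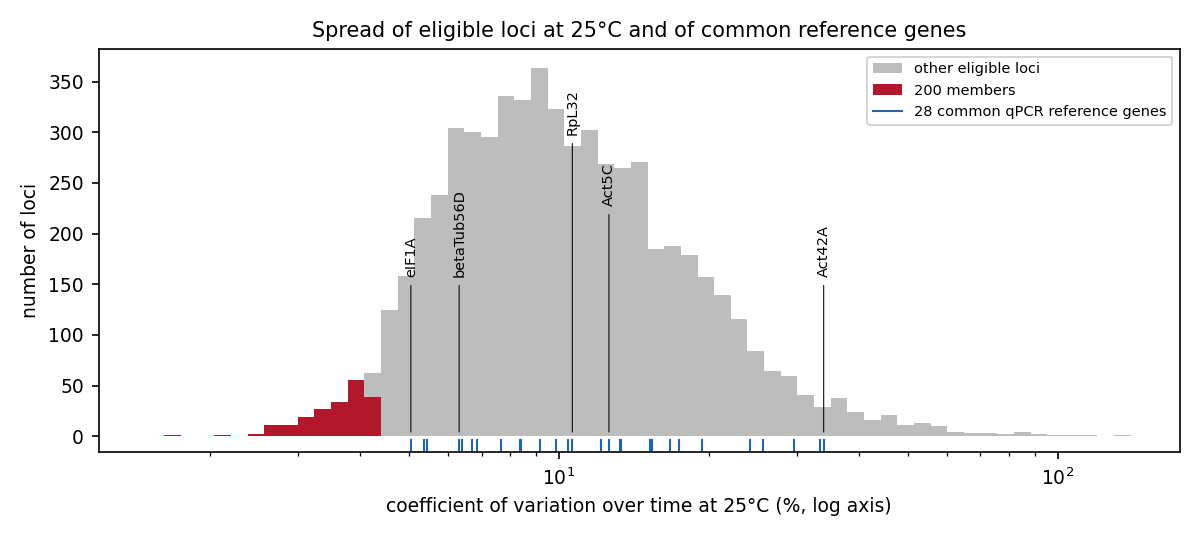
Number of loci by CV over the 20 libraries at 25°C, in percent on a log axis, for the 200 members (red) and the other eligible loci (grey). Blue ticks mark the 28 common qPCR reference genes, from eIF1A at 5.05% to Act42A at 34.0%, all to the right of the members.

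The members were not confined to a chromosome, and their transcripts were longer in the median than those of the other loci. They lay on 2L (20%), 2R (17.5%), 3L (20%), 3R (22.5%), X (18%) and 4 (1.5%), against 17.3%, 20.3%, 19.2%, 24.7%, 17.1% and 0.788% of the other eligible loci on the same arms. The locus of 12 members joined 2 or more genes. The median transcript of a member was 2223 bases long with 5 exons, against 1846 bases and 4 exons in the other loci, and the median locus spanned 4.23 kb and 4.19 kb. A longer and more abundant transcript also yields more reads, and the members had a median of 2608 reads per library at 25°C against 1466 in the other loci. The part of read number in the choice of members was not tested.

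At 28°C, the members were no longer set apart in the way they were at 25°C. Their CV over the 20 libraries ranged from 8.48% to 194%, with a median of 57.2% against 74.5% in 5818 other eligible loci with a value above 0. The members were also more abundant at 28°C, with a median of 18.9 FPKM against 13.3 FPKM, and CV fell with level there (Spearman's rho across the members -0.65, a description). Each CV was therefore divided by the running median over its neighbours in mean level. This matches loci by FPKM only and leaves out transcript length, whose median was 2223 bases in the members and 1846 in the other loci. This ratio had a median of 0.888 in the members and of 1.00 in the other loci, and it was below 1 in 130 of 200 members (65%) against 49.2% of the other loci. With all eligible loci ordered by their CV at 25°C and split into 10 bins of 604, the median ratio at 28°C was 0.889 in the lowest bin, 0.977 in the fifth and 1.18 in the highest. Spearman's rho of the ratios in the 2 courses across 6018 loci was 0.20.

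**Figure D4:**
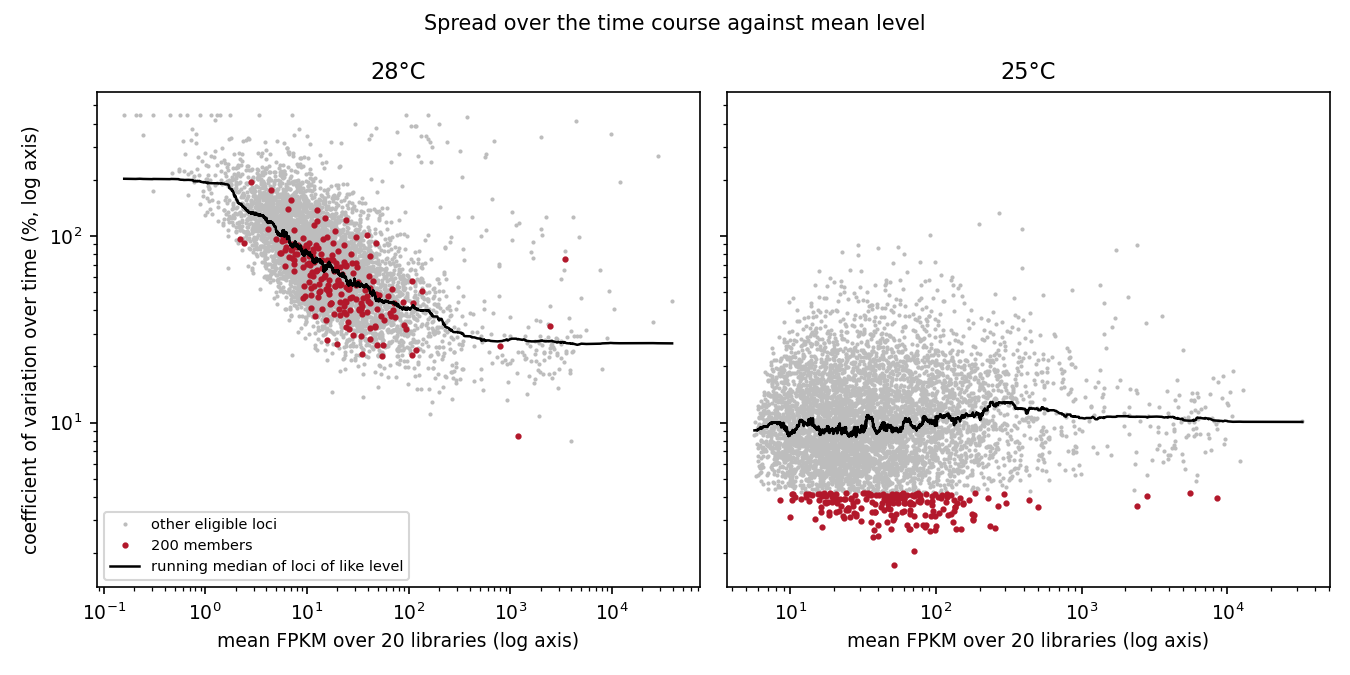
CV over the 20 libraries in percent against mean FPKM, both on log axes, at 28°C (left) and 25°C (right), for the 200 members (red) and the other eligible loci (grey), with the running median of loci of like level in black. At 28°C the members scatter around the line, with 130 of 200 below it; at 25°C they form the lower edge because the rule chose them there.

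Read number at 28°C was low. The low values of a library were a median of 1.97 to 7.88 steps at 28°C, against 1.00 to 1.01 at 25°C, so that single steps were not the usual low value there. The counting estimate takes 1 step as 1 read, and both it and the read numbers at 28°C may be off for that reason. Counting alone would give a median CV of 24.1% in the members at 28°C and of 29.5% in the other loci. The observed CV was a median of 2.49 times that value in the members and 2.47 times in the others, so the 2 were alike. Unlike the ratio to the running median, the counting estimate includes transcript length. Without the 4 shallowest libraries, an alternative added after the data had been seen, the median CV of the members was 43.5%, against 60.3% in the other loci, and the median ratio to the running median was 0.857. Among the 94 members with at least 0.9 FPKM in every library at 28°C the median CV was 43.3%, against 43.5% in the other loci that passed the same filter, and the median ratio to the running median was 0.971. Such a filter was passed by 47% of the members and 32.6% of the other eligible loci. Of the 200 members, 102 were at 0 in at least 1 library at 28°C, most often in CT60 (47 members), CT27 (44) and CT48 (38), and none was at 0 in CT42, CT51, CT54, CT66 and CT75.

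Under the rule applied at 28°C itself, 1307 loci reached 5 FPKM in all 20 libraries, 58 members among them. Of the 200 members, 6 were also among the 200 smallest CVs at 28°C, which is 3% of each list and close to the 3.31% of all eligible loci found there. Of the 58 members eligible at 28°C these were 10.3%, beside 15.5% of all 1288 loci eligible at both temperatures. These were eEF2, Spn88Ea, eIF3d1, bif, Ldaf1/arm and bic.

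The elongation factor eEF2 was by far the steadiest member at 28°C and the second of all 1307 loci. It had 1033, 1189 and 1425 FPKM in its lowest, median and highest library at 28°C, a CV of 8.48% at about 1561 reads per library, and 2225, 2399 and 2550 FPKM at 25°C, a CV of 3.55%. Spn88Ea, a serpin, followed at 28°C with 31.6, 52.9 and 77.6 FPKM (22.9%). Then came eIF3d1 (23.1%), bif, an actin-binding protein (23.2%), Ldaf1/arm (24.4%), bic (25.6%), CG12065 (25.9%), Vha68-2 (26.0%), Gyf, a translational regulator (26.5%), and aux (27.6%). Set against loci of like level, eEF2 had the lowest ratio to the running median (0.303), followed by aux at 15.9 FPKM (0.399) and Gyf at 19.6 FPKM (0.406).

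The opposite end was held by members with few reads. CG6425 was at 0 in 10 libraries at 28°C, had a median of 0.510 FPKM and reached 24.2 FPKM at CT30, a CV of 194% at 3.10 reads per library. CG32095 (176%), MED17 (156%), pkaap (an anchor of protein kinase A, 140%) and RagC-D (138%) followed, with between 3.29 and 8.09 reads per library. Eato, an ABC transporter (124%), CG7970 (122%), Golgin84 (120%), fws (114.8%) and Setd3, a histidine methyltransferase of actin (108%), completed the 10 largest. In CG7970, Golgin84 and fws the highest library was CT27, the shallowest of the course. For RpL28 the CV at 28°C was 75.4%, with 1884, 2775 and 13984 FPKM in its lowest, median and highest library. The highest was CT69, and without it the other libraries lay between 1884 and 4112 FPKM with a CV of 26.6%. Leaving out 1 library lowered the CV by a factor of over 1.5 in 9 of the 200 members, among them Eato (69.8% without CT24), pkaap (81.6% without CT45) and CG32095 (112.5% without CT30).

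The first members at 25°C ranged widely at 28°C. Moca-cyp had 2.03 FPKM in its lowest, 16.0 FPKM in its median and 32.4 FPKM in its highest library at 28°C, a CV of 51.5%. Tmep was at 0 in 2 libraries and reached 28.0 FPKM (54.3%). MBD-R2 lay between 11.1 and 52.6 FPKM (44.5%), and Tmem43 between 0 and 87.3 FPKM (88.9%). Of the first 20, Idh (33.3%), CG4853 (35.5%) and beta-Man (38.9%) were the steadiest at 28°C after Ldaf1/arm, and 9 were at 0 in at least 1 library.

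Mean levels were lower at 28°C than at 25°C in all 200 members and in 5568 of 5838 other eligible loci, so that the shift was common to the tables. On the log2(FPKM + 1) scale the median difference was -1.31 in the members and -1.26 over all eligible loci. Spearman's rho of the 2 means across the members was 0.92. The most negative differences were those of CG33523 (-2.57, 10.4 FPKM at 28°C and 66.6 FPKM at 25°C), CG5235 (-2.46), SP1173 (-2.45), CG7945 (-2.32) and SkpA (-2.29, 88.6 FPKM at 28°C and 437 FPKM at 25°C). The smallest were those of HDAC4 (-0.02, 24.0 FPKM at 28°C and 24.3 FPKM at 25°C), Gclc, an enzyme of glutathione synthesis (-0.14), Chd1 (-0.36), Nak, a kinase of endocytosis (-0.38), and Top3beta, a topoisomerase (-0.53). HDAC4 and CG33523 are thus the ends of a ranking of 200 differences around the common shift, none of which was tested. CG33523 was at 0 in CT27, CT60 and CT69 at 28°C, with a CV of 80.8%.

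A linear trend over time at 28°C was called by limma in 6 of the 94 members that could be tested (6.38%), beside a background of 8.21% of 2035 loci. Higher late were 5 members (background 5.8%) and lower late was 1 (background 2.41%), and 17 members (18.1%) had an unadjusted P under 0.05, beside 22.4% of all loci. The share of members was thus close to the background. Without the CT24 library 2 members were called and without the CT27 library 3, and in the other sets that left out 1 library between 4 and 6. When every locus with a mean of at least 0.9 FPKM was tested (7363 loci), no member was called by limma, beside 4 of all loci (0.0543%), and 28 members (14%) had an unadjusted P under 0.05, beside 12.7% of all loci.

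The locus of RpL23A and Uhg7 changed most clearly. It had 1185 FPKM in its lowest library, CT24, a median of 2160 FPKM, and 4629 FPKM in its highest, CT81, and the fitted change over 57 h was 1.21 ± 0.25 log2 units (SE, limma, adjusted P = 0.00465). This call held without each single library, with adjusted P up to 0.0226, and reads of the protein gene and of the snoRNA host gene cannot be told apart in it. The transcript of bic had 354 FPKM at CT24, a median of 792 FPKM and 1133 FPKM at CT72 (1.08 ± 0.24, adjusted P = 0.00986), and it was called without each single library as well. At 25°C, RpL23A/Uhg7 stayed between 5189 and 5929 FPKM and bic between 2614 and 3054 FPKM.

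The dynamin gene shi had 15.4 FPKM at CT27, a median of 34.8 FPKM and 51.8 FPKM at CT78 (1.06 ± 0.27, limma, adjusted P = 0.0194), and Vps4 had 12.3 FPKM at CT24, a median of 36.3 FPKM and 73.9 FPKM at CT72 (1.27 ± 0.33, adjusted P = 0.0194). CG12213 had 12.5 FPKM at CT27, a median of 37.5 FPKM and 62.005 FPKM at CT78 (1.29 ± 0.39, adjusted P = 0.0436). All 3 had their lowest library at CT24 or CT27, both of low depth. Without CT24 the adjusted P of Vps4 was 0.0776, that of shi missed 0.05 without CT24, CT27 or CT78, and that of CG12213 missed it in 14 of 20 sets that left out 1 library. Eato was the only member lower late (-1.91 ± 0.51, adjusted P = 0.0240). Its 88.0 FPKM at CT24 and 40.9 FPKM at CT27 stood above all later libraries, which lay between 5.22 and 16.8 FPKM, and the call was lost without CT24 (adjusted P = 0.0909), CT27, CT75 or CT78. Without the 4 shallowest libraries only RpL23A/Uhg7 of these 6 was called (1.22, adjusted P = 0.0225).

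**Figure D5:**
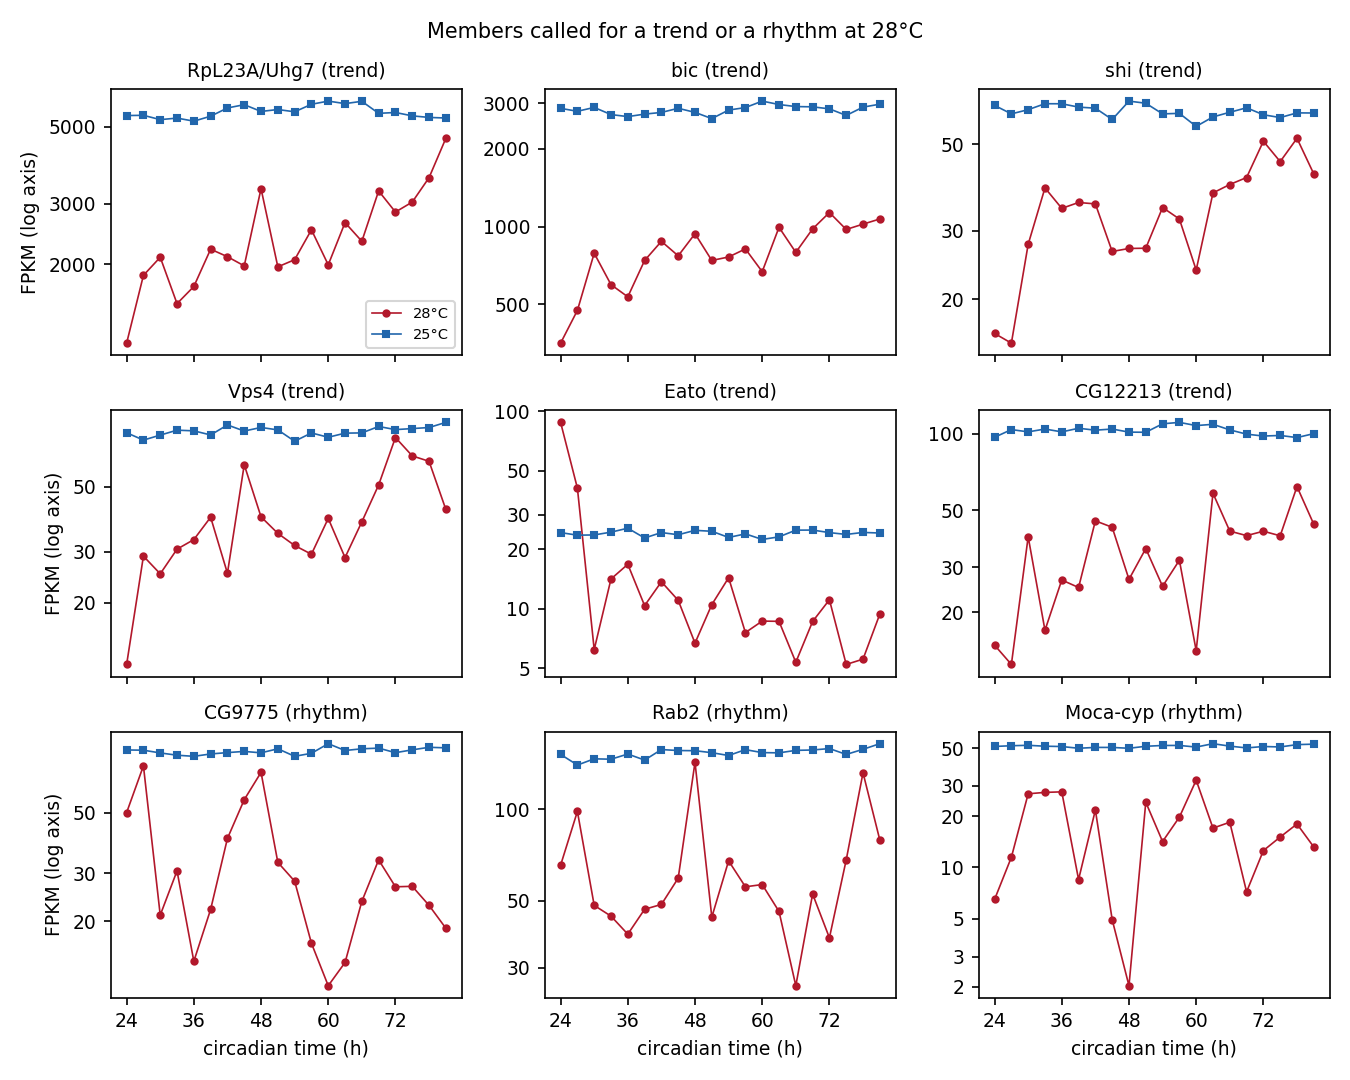
FPKM on a log axis against circadian time at 28°C (red circles) and 25°C (blue squares) for the 6 members called for a trend at 28°C (first 6 panels) and the 3 called for a rhythm (last row). In RpL23A/Uhg7, bic, shi, Vps4 and CG12213 the lowest library at 28°C is CT24 or CT27, in Eato these are the highest, and the profiles at 25°C are nearly flat.

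A rhythm at 28°C was called by JTK-Cycle, rewritten here, in 3 of the 94 members (3.19%), beside a background of 3.73% (76 of 2035 loci). At 25°C the same test called 339 of 6933 loci. The paper reports more rhythmic transcripts in both courses at the same threshold, so these shares belong to the rewritten test. No member passed a Benjamini-Hochberg adjustment over loci, where the smallest adjusted P was 0.835. Leaving out 1 library gave 2 to 5 called members, with 5 without CT36, CT63, CT69, CT75 or CT81. CG9775 had the smallest P of the 3 (JTK-Cycle, P = 0.000869 over 24 references, period 24 h). It ranged from 11.6 FPKM at CT60 over a median of 26.8 FPKM to 74.4 FPKM at CT27, with a second high at CT48 (70.4 FPKM) and a lower one at CT69 (33.6 FPKM). Its call held without each single library, while P was 0.0569 without the 4 shallowest, which include both CT27 and CT48.

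Rab2 (P = 0.0115, period 27 h) had 26.2 FPKM at CT66, a median of 54.03 FPKM and 143 FPKM at CT48, with 98.4 FPKM at CT27 and 132 FPKM at CT78. It was not called without CT78 (P = 0.158). Moca-cyp (P = 0.0442, period 27 h) was highest at CT60 and lowest at CT48, both shallow libraries, and 10 of 20 sets that left out 1 library lost the call. Moca-cyp was the only member called at both temperatures. At 25°C, where its P was 0.0202, all its libraries lay within 49.9 and 53.1 FPKM.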

How the data were processed

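RNA-Seq of S2 cells was analysed from the deposited FPKM tables, 1 for each time course. As the authors describe it, reads were single-end, were aligned with TopHat2 to dm3, and FPKM values were made with Cufflinks; at 28°C they drew a subset of the aligned reads. FPKM scales for depth and length. In the 4 shallowest libraries at 28°C the median member lay at 0.708 to 0.850 of its own mean, and between 25 (CT24) and 47 (CT60) members were at 0. In CT63, at 1.00 times the median depth, the median member lay at 0.845.

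The 200 members and all gene lists were chosen with earlier results of these data known. Loci of both tables were joined by their accessions (15602 loci). Named genes were the first 20 by CV, the ends of each ranking, called members, and the smallest CV and highest mean of each list. Trends were fitted with limma 3.58.1 (R 4.3.3) on log2(FPKM + 1), with Benjamini-Hochberg adjustment over loci of at least 0.9 FPKM in every library. JTK-Cycle was rewritten in Python 3.11.15 (numpy 2.4.6, pandas 2.3.3, scipy 1.17.1) with linear detrending and a Bonferroni factor of 24. Both were tested on simulated data. The value of 1 read was read from loci with a single transcript of over 1500 bases and values above 0 in at most 12 libraries, after 150 bases were taken off the length. It was the step, searched near the low end of these values, of which they were most nearly whole multiples. In each library at least 98.8% of values below 6 steps were then whole multiples within 0.15. Counting estimates cover counting error only. Positions are from dm3. The tables were normalized separately, and no test was made across them. Alternatives changed the scaling, filter, measure of spread, pseudocount or test, or left out a library. Promoter and protein sequences were not analysed here.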

Additional observations from a re-analysis of the deposited data

How the results depend on the processing

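Of the 200 members, 117 were kept with the median absolute deviation over the median, 66 with the scatter around a straight line in time, and between 162 and 200 with the other scalings, measures and thresholds; leaving out 1 time point kept 167 to 189. In all 26 alternatives 44 members were kept, 18 of the first 20 by CV among them. The median CV at 28°C was 53.96% to 58.6% without 1 library, 43.3% with the filter of 0.9 FPKM in every library and 43.5% without the 4 libraries of lowest depth. That set of libraries was chosen after the data had been seen. The number of members called for a trend by limma was 2 to 6 without 1 library. It was 2 of 139 without the 4 libraries (23 at an unadjusted P under 0.05, 3.19% of all loci called). With no filter it was 1 (31 unadjusted, 0.457% of all loci called). With a mean of at least 0.9 FPKM it was 0 (28 unadjusted, 0.0543% of all loci called). The last 2 covered 9194 and 7363 loci, and the reason for their fewer calls was not tested. Kendall's tau called 6 members, 4 of them shared. The number called for a rhythm was 2 to 5 without 1 library, 10 with a cosinor (beside 10.6% of all loci) and 1 of 139 without the 4 libraries (beside 1.97%). The median log2 difference of mean levels was -1.46 with medians over libraries in place of means. None of the 6 trends called by limma at 28°C changed its direction in any alternative run. For the other results, which are counts, medians and P values, no direction was compared. No paired analysis was possible because the columns carry no replicate numbers, and no test sets the courses against each other, since their tables were normalized separately. Depth at 28°C, a median of 18.7 reads per member and library, limits every value there, and with 94 of 200 members tested nothing is said of the others' slopes or rhythms.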

Other observations

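Genes of the complexes and families compiled after their values had been seen differed in CV. Of the kinases of PER and their partners, CkIalpha averaged 26.0 FPKM at 28°C with a CV of 31.7%, against 98.7 FPKM and 4.12% at 25°C, while Bdbt averaged 19.1 FPKM at 28°C with a CV of 106%, against 50.4 FPKM and 3.95% at 25°C. Bdbt was at 0 in CT48, CT63 and CT78 at 28°C. The CVs at 28°C are given here without a comparison to loci of like level. CkIIalpha (11.1%), nmo (7.99%), CkIIbeta (7.68%) and sgg (7.50%) lay outside the set at 25°C. Among cullins and their adaptors, SkpA, EloC, Cul1 and Cul2 were members, while EloB had a CV of 4.63%, Cul5 of 5.38%, Cul4 of 5.96%, Cul3 of 9.38%, Roc2 of 15.7% and Roc1a of 18.7% at 25°C.

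The elongation factor eEF1alpha1, a common qPCR reference, had a CV of 7.95% at 28°C and of 7.66% at 25°C. It was the lowest CV at 28°C among all loci eligible at 25°C, below the 8.48% of eEF2.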
